A study of Mus musculus with 10 samples.

Results

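The 10 genes described here encode the 3 enzymes of serine synthesis (Phgdh, Psat1 and Psph), 3 mitochondrial enzymes that carry one-carbon units on folate (Shmt2, Mthfd2 and Mthfd1l), and 4 genes known as targets of the transcription factor ATF4 (Asns, Chac1, Sesn2 and Trib3). They were chosen from a list of gene symbols, out of 26312 Ensembl genes in the deposited table, and all 10 were found there and passed the filter on low values. The list was drawn up with results of these data in view, so the differences of these 10 genes between the 4 groups are given as descriptions, without p-values. Where the number of the 10 that passed a threshold is given, it stands beside the share of all genes that did, and nothing is read from it. The RNA was that of luminal mammary epithelial cells from C57BL/6J mice aged 12 weeks, and the cells were taken by flow cytometry as EpCAM-high, CD49f-low, Sca-1-positive and CD49b-negative. By the genotype entry and the library names the mice were RSK2(+/+), here WT, or RSK2(-/-), here KO, although the titles of the RSK2(-/-) samples also carry the letters WT. The mice were in estrus or diestrus, giving 3 libraries each of WT estrus and KO estrus and 2 each of WT diestrus and KO diestrus. RSK2 is a kinase downstream of ERK1/2 and is encoded by Rps6ka3, and the series title asks about ERK1/2-RSK2 signalling in estrogen homeostasis. The labels give no detail of how the RSK2 allele was disrupted and do not say whether a library came from 1 mouse or a pool, so errors measure the spread between libraries, which may be technical.

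Values are normalized read counts, and they added up to between 14108057 and 15307238 per library. All 9 genes listed for hormone-sensing luminal cells were present. Among them the luminal keratin Krt8 had 117649 to 191522 counts, and the hormone receptors Esr1 and Pgr 1468 to 3334 and 748 to 1688. Of the fibroblast genes Col1a1 did not exceed 11 counts and Dcn ran from 64 to 3065. Of the leukocyte genes Ptprc did not exceed 6 and Csf1r ran from 187 to 278. Rps6ka3 itself lay between 156 and 164 counts in the KO estrus libraries, against 128 to 137 in WT estrus, and between 156 and 165 in KO diestrus, against 139 and 165 in WT diestrus. It was thus not lower in the KO libraries, and a count over the whole gene does not check for a disrupted transcript. In a principal component analysis the 3 KO estrus libraries stood apart from the other 7, at -55.8 to -37.4 on a leading axis (29.3% of variance) where the rest lay at 5.5 to 33.1. In such bulk samples, fewer cells of a type and less RNA per cell cannot be told apart.

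Cells make serine from the glycolytic intermediate 3-phosphoglycerate. SHMT2 then splits serine into glycine and a one-carbon unit inside the mitochondrion. MTHFD2 oxidises that unit and MTHFD1L releases it as formate, which leaves for purine and thymidylate synthesis in the cytosol. ATF4 is translated when the initiation factor eIF2 is phosphorylated, as under amino acid shortage or stress of the endoplasmic reticulum, and it turns on genes of amino acid synthesis and uptake, including several of the serine and folate genes. In the mammary gland this pathway is best known from breast cancer, where amplification of PHGDH has been described.

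The promoters of the 10 genes were searched because ATF4 binds with C/EBP partners to a composite element, whose core was written here as TGATGNAA and looked for on both strands. RefSeq windows of GRCm38.p6 from 250 bases before to 50 bases after the start were available for all 10 genes. The core was present in those of Chac1, Asns and Trib3, and in 3.97% of all 32851 windows. A near match, TGGTGCAA, was searched after the sequences had been seen. It was present in Psat1 and Trib3 and in 0.536% of all windows, and the 2 motifs do not overlap in Trib3. The stretches below are given 5′ to 3′ on the strand of the gene, with the matched letters in capitals. They were picked by the search for these letters, so the likeness of the capitals was set by it.
Chac1, chr2:119351019-119351086, plus strand, upstream of the annotated gene: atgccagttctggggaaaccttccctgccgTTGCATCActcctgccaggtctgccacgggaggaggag
Asns, chr6:7693214-7693243, minus strand, within an exon of Asns in GENCODE M21: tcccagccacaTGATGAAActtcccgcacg
Trib3, chr2:152344028-152344057, minus strand, motif upstream of the gene in GENCODE M21 and after the RefSeq start: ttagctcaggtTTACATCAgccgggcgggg
Trib3, chr2:152344061-152344123, minus strand, upstream of the annotated gene: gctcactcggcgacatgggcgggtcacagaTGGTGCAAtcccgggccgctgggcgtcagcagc
Psat1, chr19:15925158-15925225, minus strand, before the RefSeq start and intronic in GENCODE M21: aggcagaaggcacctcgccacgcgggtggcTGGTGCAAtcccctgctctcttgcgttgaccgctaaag
In Chac1 and in the first Trib3 stretch the match is on the strand opposite to the gene. The matches begin 193 bases before the start in Chac1, 23 before it in Asns, 33 before it in Trib3 and 136 before it in Psat1, and the other Trib3 match begins at base 15 after the start. A match describes letters only, and binding was not measured.

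Among the enzymes of serine synthesis, Psat1 differed most between the groups and Phgdh and Psph little. Psat1 (ENSMUSG00000024640, GRCm38 chromosome 19, 15904678 to 15947337) encodes phosphoserine aminotransferase, the middle step. It had 218, 80 and 132 normalized counts in WT estrus 1, 2 and 3 and 69, 83 and 146 in KO estrus 1, 2 and 3. At diestrus it had 147 and 206 counts in the WT libraries and 332 and 487 in the KO libraries. The KO diestrus libraries were thus the highest of all 10, and WT estrus overlapped both KO estrus and WT diestrus. The limma difference between estrus and diestrus in KO was -2.08 ± 0.40 (SE) on the log2(value + 1) scale, which corresponds to a level 4.23 times higher at diestrus. Phgdh (ENSMUSG00000053398, chromosome 3, 98313170 to 98339990), the first enzyme of the pathway, had 1659, 1324 and 1357 counts in WT estrus and 1511, 1858 and 1661 in KO estrus. It had 974 and 1355 counts in WT diestrus and 1431 and 1456 in KO diestrus. Its lowest library was WT diestrus 1, and it was slightly lower, not higher, in KO diestrus than in KO estrus (log2 0.21 ± 0.17 for estrus minus diestrus). Psph (chromosome 5, 129765558 to 129787449), the phosphatase of the last step, ranged only from 241 to 323 counts over the 10 libraries. In Psph the groups overlapped in each of the 4 comparisons between genotypes or stages, with means of 290 ± 21.1 counts in WT estrus (SD, n = 3), 262 ± 23.2 in KO estrus (n = 3), 306 ± 24.0 in WT diestrus (n = 2) and 296 ± 23.3 in KO diestrus (n = 2).

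The mitochondrial folate enzymes split in the same manner, with Mthfd2 far more variable than Shmt2 or Mthfd1l. Mthfd2 (ENSMUSG00000005667, chromosome 6, 83305691 to 83325908) encodes the dehydrogenase and cyclohydrolase that is abundant in embryonic and dividing cells. It had 480, 209 and 403 counts in WT estrus and 208, 204 and 250 in KO estrus, so that WT estrus 2 lay within the KO range. It had 398 and 550 counts in WT diestrus and 891 and 1216 in KO diestrus. The KO diestrus libraries were again above all others, at 4.72 times KO estrus (log2 -2.24 ± 0.31 for estrus minus diestrus) and 2.22 times WT diestrus (log2 1.15 ± 0.33 for KO minus WT). Shmt2 (chromosome 10, 127517123 to 127522444), which feeds serine into the mitochondrial pathway, had 601, 443 and 454 counts in WT estrus and 631, 598 and 506 in KO estrus. At diestrus it had 476 and 483 counts in WT and 501 and 507 in KO, within the range of the estrus libraries. Mthfd1l (chromosome 10, 3973118 to 4167081), the formyltetrahydrofolate synthetase that releases formate, was the least abundant of the 10 genes, with 36 to 87 counts. Its lowest and highest values were both in KO estrus, in libraries 1 and 3, and its 4 group means lay between 52.0 and 69.5 counts.

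The 4 ATF4 target genes outside the serine and folate pathways each had their highest group mean in KO diestrus and their lowest in KO estrus. Asns (ENSMUSG00000029752, chromosome 6, 7675169 to 7693254), asparagine synthetase, had 1342, 873 and 930 counts in WT estrus and 769, 840 and 983 in KO estrus. It had 999 and 1055 counts in WT diestrus and 1375 and 1483 in KO diestrus, where WT estrus 1 came close to the KO diestrus values. Sesn2 (ENSMUSG00000028893, chromosome 4, 132492032 to 132510501), whose protein is a leucine sensor that restrains mTORC1, had 866, 746 and 1096 counts in WT estrus against 651, 677 and 548 in KO estrus. It had 945 and 1243 counts in WT diestrus against 1414 and 1563 in KO diestrus. In Sesn2 alone of the 10 genes the KO and WT values did not overlap at either stage. Its KO values lay below WT at estrus and above WT at diestrus. Of all genes 13.1% were lower in KO at estrus and 21.4% higher in KO at diestrus without overlap. The share of all genes with both was not computed. Among the further pathway genes described below, Dld and Xpot had the same order without overlap. The interaction, which is the genotype difference at estrus minus that at diestrus, was log2 -0.97 ± 0.27 for Sesn2.

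Trib3 (ENSMUSG00000032715, chromosome 2, 152337422 to 152344032), a pseudokinase that binds AKT and ATF4, had 640, 381 and 744 counts in WT estrus and 377, 354 and 536 in KO estrus. It had 743 and 1011 counts in WT diestrus and 1124 and 1237 in KO diestrus. The KO diestrus level was 2.84 times that of KO estrus (log2 -1.5 ± 0.27 for estrus minus diestrus). Chac1 (chromosome 2, 119351229 to 119354381), which degrades glutathione, was the most scattered within groups, with 316, 148 and 607 counts in WT estrus and 195, 179 and 301 in KO estrus. It had 338 and 577 counts in WT diestrus and 432 and 720 in KO diestrus. The WT estrus libraries alone spanned most of its whole range, and among the 4 comparisons between genotypes or stages its groups were apart only in KO, with estrus below diestrus.

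**Figure D1:**
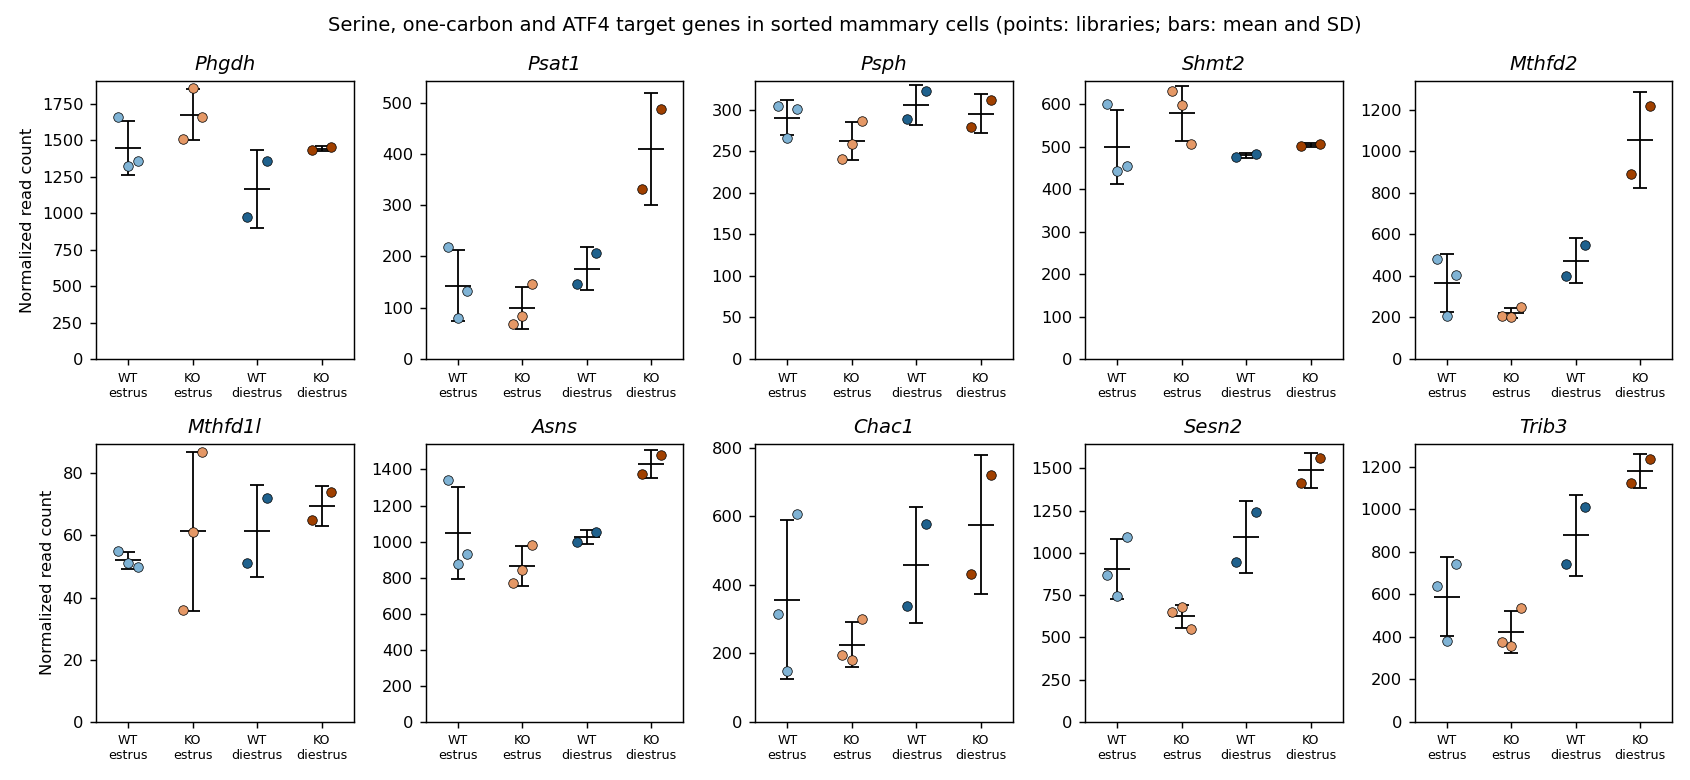
Normalized read count (vertical axes, from 0) of the 10 genes in each library (points) of the 4 groups (horizontal axes), with the group mean and SD (bars). In Psat1, Mthfd2, Asns, Sesn2 and Trib3 both KO diestrus points lie above every other library, while Psph stays between 241 and 323 counts throughout.

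Divided by the summed exon length of the gene, which allows levels of different genes to be compared, Phgdh was the most abundant with a mean of 587 normalized counts per kb over the 10 libraries, and it exceeded the next gene in 10 of 10 libraries. Asns (389 per kb), Trib3 (336), Sesn2 (281) and Chac1 (233) followed, but neighbours in this order changed places: Asns was above Trib3 in 6 libraries and below it in 4, and Trib3 was above Sesn2 in 7. Shmt2 (167 per kb) and Mthfd2 (138) also changed places, in 3 libraries. Psph (66.1 per kb), Psat1 (44.7) and Mthfd1l (13.6) were the lowest, with Psat1 above Mthfd1l in all 10 libraries. In each group the mean of Psat1, the middle enzyme of serine synthesis, lay below that of Phgdh, the first. The means were closest in KO diestrus (96.3 against 581 per kb) and furthest apart in KO estrus (23.4 against 674).

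Set side by side, the 4 comparisons show the largest differences between the stages in KO. For the 10 genes the median difference between estrus and diestrus in KO was log2 -0.99, with 8 of 10 below 0, beside a median of -0.01 over all 15180 genes tested. Of the 10 genes 5 (Psat1, Mthfd2, Asns, Sesn2 and Trib3) passed limma's test at an adjusted p under 0.05 over all genes, all lower at estrus. Over all genes 16.6% passed in either direction and 8.95% were lower. In 6 of the 10 genes, those 5 and Chac1, KO estrus lay below KO diestrus without overlap, and in Phgdh above it. Over all genes the shares were 26.0% below and 25.0% above. Fewer of the 10 genes passed with KO diestrus 1 or KO diestrus 2 left out, and fewer of all genes did as well. That drop is thus not a result about the 10. Their median difference stayed between -1.06 and -0.83 whichever library was left out. With 1 KO diestrus library left, that library was assumed to vary like the other groups.

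In WT the same stage comparison gave smaller values, with a median of log2 -0.25 and 7 of 10 genes below 0. The WT estrus and diestrus values overlapped in all 10 genes, while of all genes 8.72% were higher and 8.99% lower at estrus without overlap. None of the 10 passed the test (limma), nor did any of the 15180 genes, a share of 0.0%, with 588 genes at an unadjusted p under 0.05 where 759 were expected by chance. Trib3 had the lowest WT difference at log2 -0.61 ± 0.27 and Phgdh the highest at 0.32 ± 0.17. The WT values rested on single libraries: the median was -0.03 without WT estrus 2 and -0.04 without WT diestrus 2, and without WT estrus 2 Mthfd2 moved from log2 -0.45 to -0.09.

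Between genotypes the signs differed by stage. At estrus the median KO minus WT difference was log2 -0.35, with 7 of 10 genes below 0, and at diestrus it was 0.39, with 9 of 10 above 0. At diestrus Psat1 stood at log2 1.20 ± 0.44, Mthfd2 at 1.15 ± 0.33, Asns at 0.48 ± 0.21, Sesn2 at 0.46 ± 0.21 and Trib3 at 0.44 ± 0.30. At estrus the same genes stood at -0.48 ± 0.36, -0.64 ± 0.27, -0.26 ± 0.17, -0.52 ± 0.17 and -0.45 ± 0.24. None of the 10 passed the test in either comparison, where at estrus 4.2% of all genes did (1.26% with KO above WT, 2.94% with KO below) and 0.0395%, which is 6 genes, at diestrus (0.0264% higher and 0.0132% lower). Values did not overlap in 7 of the 10 genes at diestrus, all higher in KO, where 21.4% of all genes were higher and 21.6% lower without overlap. At estrus Sesn2 alone did not overlap, being lower in KO, as were 13.1% of all genes. Leaving out WT estrus 1 brought the estrus median to -0.12, leaving out WT estrus 3 to -0.18, and leaving out KO estrus 1 to -0.22. The diestrus median was 0.16 without WT diestrus 1 and 0.61 without WT diestrus 2. Without WT estrus 2 the Mthfd2 difference at estrus was log2 -1.0, and without WT estrus 3 that of Chac1 was 0.02, against -0.48 with all libraries. These comparisons share groups, so their signs are not independent of one another.

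**Figure D2:**
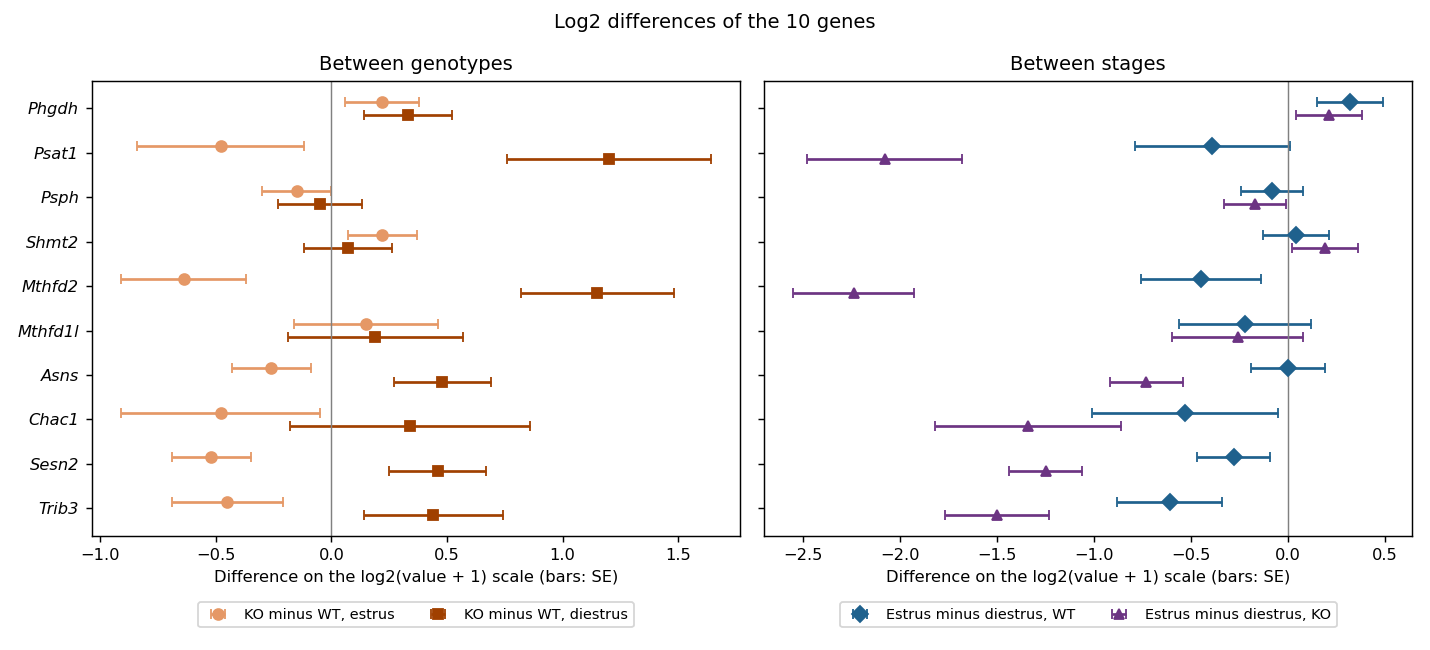
Differences of the 10 genes (vertical axis) on the log2(value + 1) scale (horizontal axis) with their SE (bars), between genotypes at each stage (left) and between stages in each genotype (right). Psat1 and Mthfd2 lie near -2 for estrus minus diestrus in KO (-2.08 and -2.24), and Phgdh, Psph, Shmt2 and Mthfd1l lie between -0.26 and 0.33 throughout both panels.

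The interaction had a median of log2 -0.77 over the 10 genes, from -1.79 ± 0.43 for Mthfd2 and -1.69 ± 0.57 for Psat1 to 0.15 ± 0.24 for Shmt2. Neither these genes nor any other gene passed the interaction test (limma; 0.0% called, 2150 genes at an unadjusted p under 0.05 where 759 were expected by chance). Without WT estrus 3 the median was -0.51.

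Across the 10 libraries the genes fell into 6 that moved closely together and 4 that did not, a division made after their values were seen. Among Psat1, Mthfd2, Asns, Chac1, Sesn2 and Trib3 the 15 pairwise Pearson correlations of log2 values ran from 0.65 (Asns with Chac1) to 0.97 (Psat1 with Mthfd2), with a median of 0.90. Among Phgdh, Psph, Shmt2 and Mthfd1l the 6 correlations ran from -0.45 to 0.63 with a median of 0.01. Psph was an intermediate case, since it was correlated with Chac1 (0.83), Trib3 (0.78) and Psat1 (0.73) in spite of its narrow range, whereas Phgdh was not (-0.08 with Psat1). The points of each correlation are the same 10 libraries and share their scaling, and the groups account for part of the spread.

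The mean of the 6 genes, relative to their mean over all libraries, was log2 0.73 and 1.09 in KO diestrus and 0.01 and 0.45 in WT diestrus. It was -0.77, -0.74 and -0.34 in KO estrus and 0.15, -0.73 and 0.15 in WT estrus. WT estrus 2 was thus as low as the KO estrus libraries, and apart from it the WT libraries lay between the KO groups. The mean of the other 4 genes stayed between -0.21 and 0.19 in all libraries, but single genes among them ranged more widely. Mthfd1l ran from -0.69 to 0.56 and Phgdh from -0.56 to 0.37.

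**Figure D3:**
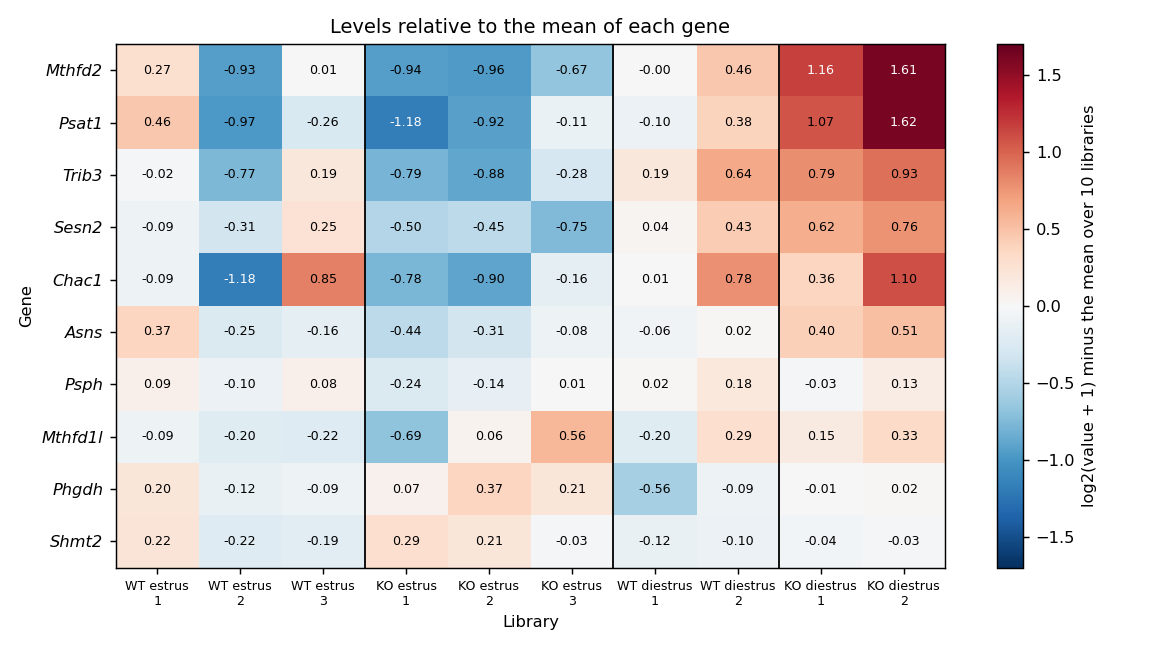
Level of each of the 10 genes (rows) in each library (columns, in 4 groups divided by black lines) as log2(value + 1) minus the mean of that gene over the 10 libraries (colour and printed number). The 6 upper genes are low in KO estrus and WT estrus 2 and high in KO diestrus, reaching 1.61 for Mthfd2 and 1.62 for Psat1 in KO diestrus 2.

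Of 10403 other genes with a mean of at least 50 counts, predicted Gm and Rik genes left out, those most like the mean of the 10 genes over the 10 libraries were Hsp90b1 (Pearson r = 0.963), Yars (0.952), Cars (0.946), Syvn1 (0.942) and Med7 (0.942). Hsp90b1 encodes the endoplasmic reticulum chaperone GRP94, Yars and Cars the cytosolic tyrosyl- and cysteinyl-tRNA synthetases, Syvn1 a ubiquitin ligase of the endoplasmic reticulum membrane, and Med7 a Mediator subunit. Hsp90b1 had 13944 and 13953 counts in KO diestrus, 7613 and 12707 in WT diestrus, 5699, 6444 and 8232 in KO estrus, and 8859, 6677 and 9425 in WT estrus. Cars had 1090 and 1398 counts in KO diestrus and 566, 541 and 792 in KO estrus. Of the further pathway genes Slc3a2, the heavy chain of several amino acid transporters, came closest (r = 0.934). These correlations describe the same 10 libraries, and a high value was sought among many genes.

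The wider pathway was described with 3 further lists, chosen with earlier results of these data known: 13 genes of serine and glycine handling, 26 of folate and methionine metabolism, and ATF4 with 26 of its partners and targets. In all, 59 of the 66 genes were tested. Because of that choice, their calls and adjusted p-values describe the values and are no independent support. Nothing is read from the counts of calls. Between the stages in KO, 6 of the 59 rose at estrus and 7 fell (adjusted p under 0.05 over all genes, limma), beside 7.67% and 8.95% of all genes, and the median was log2 -0.16. Atf4 itself had 5542.7 ± 1090 counts in KO estrus and 6231.0 ± 129 in KO diestrus (SD, n = 3 and 2; log2 -0.19 ± 0.19, limma adjusted p = 0.522). Its KO estrus and KO diestrus values overlapped. ATF4 protein, which is set largely by translation, was not measured.

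Of the 26 tested genes of the ATF4 list 6 fell and 3 rose at estrus against diestrus in KO. Xpot, the tRNA exporter exportin-t, fell from 702 ± 78.5 counts at diestrus to 309 ± 33.5 at estrus (limma log2 -1.18 ± 0.16, adjusted p = 0.00356). It also fell in KO against WT at estrus, from 519 ± 7.23 counts in WT (log2 -0.75 ± 0.14, limma adjusted p = 0.0241). The amino acid transporters Slc38a2 (log2 -1.03 ± 0.21) and Slc7a1 (-1.06 ± 0.27) fell, as did the growth factor Vegfa (-1.04 ± 0.24). The Slc7a1 call was lost with each library's length and GC trend taken out (limma adjusted p = 0.0556) and with no trend in the spread (0.0527). The scarce lipoprotein receptor Vldlr is also among the 6 (-2.27 ± 0.54), but it passed the filter on low values only through KO diestrus, where it had 25 and 47 counts against 3 to 17 in the other 8 libraries, so nothing is read from its call. The sixth, Cebpg, a dimer partner of ATF4, lies outside the rule for named genes (log2 -0.79 ± 0.16). The secreted glycoprotein Stc2 went the other way and rose, from 1878.0 ± 286 counts at diestrus to 3813.7 ± 418 at estrus (log2 1.02 ± 0.17, limma adjusted p = 0.00584). The other risers, also outside the rule, were Pck2, the mitochondrial phosphoenolpyruvate carboxykinase (0.48 ± 0.13), and Cebpb (0.60 ± 0.19, limma adjusted p = 0.0488, close to the threshold). The calls of Cebpg, Pck2 and Cebpb between the stages in KO were not followed gene by gene through the other settings. Cebpb, a transcription factor of the C/EBP family, also rose in KO against WT at estrus, from 1788.7 ± 131 to 2919.7 ± 686 counts (log2 0.68 ± 0.17, limma adjusted p = 0.0459). Both estrus calls against WT were lost with each library's length and GC trend taken out (limma adjusted p = 0.0571 for Xpot and 0.215 for Cebpb) and also with no trend in the spread or with the estrus libraries alone. With each of the 10 libraries left out in turn, Cebpb was lost in 9 fits, all but that without KO estrus 2 (limma adjusted p of 0.0541 to 0.123), and with no filter (0.0849). Xpot was lost in 4 fits, those without WT estrus 2, WT estrus 3, KO estrus 1 or KO diestrus 2 (limma adjusted p of 0.0504 to 0.0686).

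Of 22 tested folate and methionine genes 3 rose and none fell at estrus in KO. These were the folate transporter Slc46a1 (154 ± 43.6 counts at estrus, 52.5 ± 9.19 at diestrus; log2 1.51 ± 0.27), Tyms, the thymidylate synthase (1.07 ± 0.29), and Ggh, which trims folate polyglutamates (0.89 ± 0.22). The Tyms and Ggh calls were lost without KO estrus 1 (limma adjusted p = 0.0729 and 0.0591) and without KO estrus 2 (0.0687 and 0.0546), and that of Tyms with no filter (0.0543). The 3 genes moved opposite to Mthfd2. The summed counts of 6 cell cycle markers, Mki67 and Top2a among them, were 216 to 308 in KO estrus against 34 and 81 in KO diestrus, 18 to 114 in WT estrus and 18 and 68 in WT diestrus. The part of cycling cells in these 3 differences was not tested. Of 11 tested serine and glycine genes Dld, the dihydrolipoyl dehydrogenase shared by the glycine cleavage system, alone passed and fell (log2 -0.73 ± 0.16, limma adjusted p = 0.0136). With KO diestrus 1 or KO diestrus 2 left out, fewer of the 59 genes were called between the stages in KO (limma), as were fewer of all genes.

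**Figure D4:**
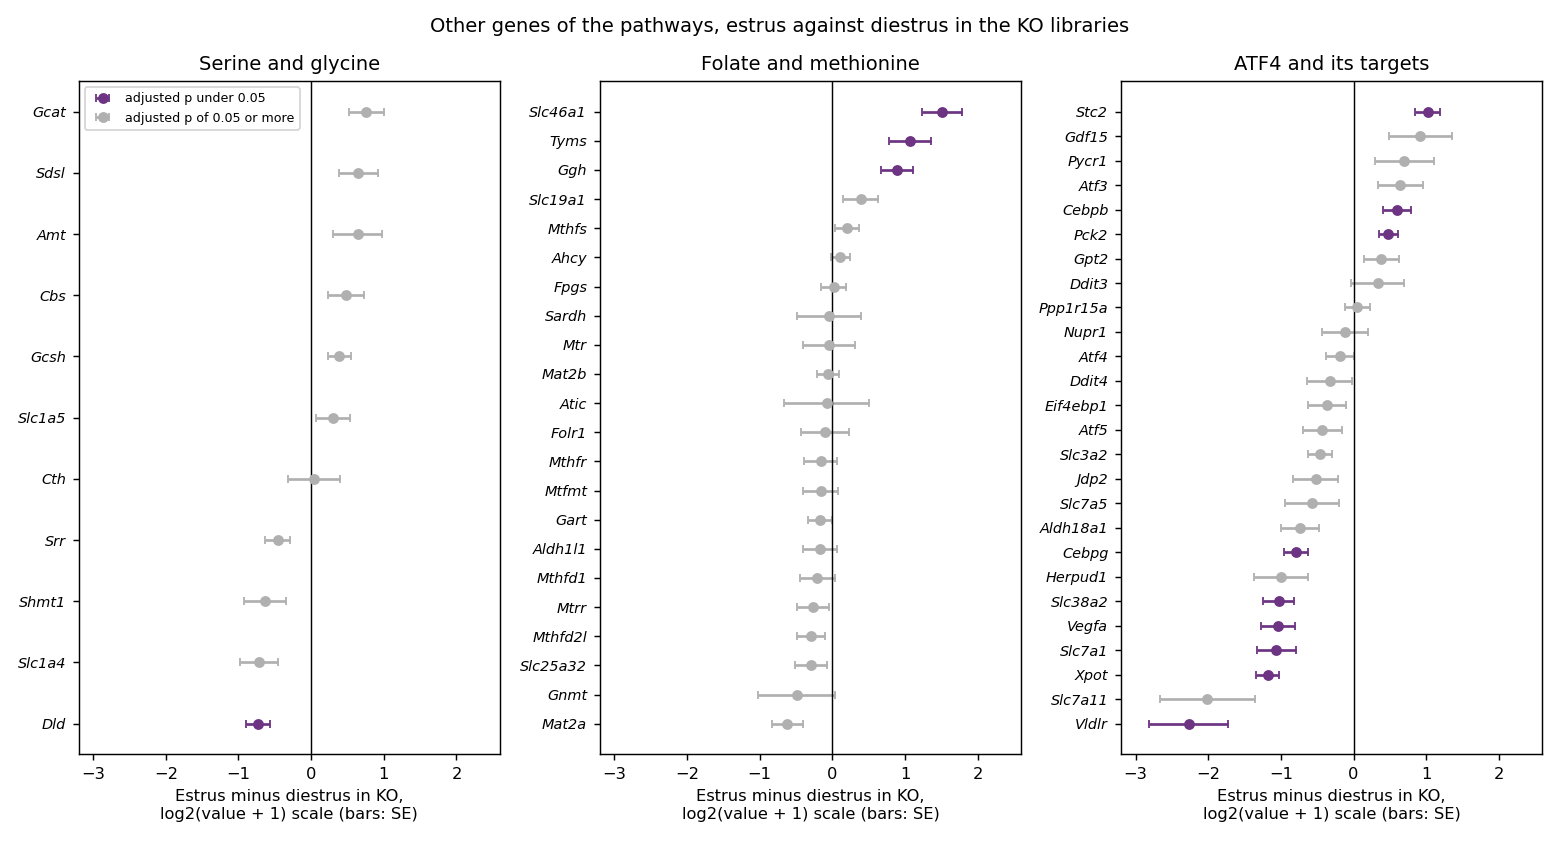
Difference between estrus and diestrus in KO on the log2(value + 1) scale (horizontal axes) with SE (bars) for the 59 tested genes of 3 wider lists (vertical axes, ordered by difference). Purple marks genes with an adjusted p under 0.05 in the limma fit over all genes, 6 above and 7 below 0, with Slc46a1 highest (1.51). Vldlr (-2.27) passed the filter on low values only through KO diestrus.

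Neither WT against KO at diestrus nor the stages in WT gave a call among the 59 genes. In the serine and glycine list the genes with the most counts, not divided by length, were Dld (0.22 ± 0.17 for KO minus WT at diestrus, -0.02 ± 0.16 for estrus minus diestrus in WT) and Slc1a4 (-0.56 ± 0.28 and -0.68 ± 0.26). In the folate list Mat2a, which makes S-adenosylmethionine, stood at 0.36 ± 0.23 and 0.13 ± 0.21 and Mat2b, its regulatory subunit, at -0.08 ± 0.16 and 0.07 ± 0.15. In the ATF4 list Atf3 stood at -0.11 ± 0.34 and 0.18 ± 0.31 and Nupr1 at -0.07 ± 0.35 and -0.03 ± 0.32.

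Sums of cell type markers differed between some groups and overlapped between others. The 4 fibroblast markers summed to 91 and 111 counts in KO diestrus, 105 to 3094 in KO estrus, 647 to 1606 in WT estrus and 576 and 638 in WT diestrus, mostly Dcn. The 5 basal markers summed to 320 and 635 counts in KO diestrus and 408 to 962 in KO estrus. The 5 luminal progenitor markers summed to 2758 and 2780 in KO diestrus and 2310 to 3119 in KO estrus. Single markers went in opposite directions. Kit had 194 and 153 counts in KO diestrus against 83 to 130 in KO estrus, and Aldh1a3 711 and 883 against 407 to 571. Elf5 was also higher in KO diestrus, at 30 and 23 against 14 to 21. Cd14 was lower, at 793 and 851 against 1128 to 1487, and Csn3 overlapped. The 9 genes listed for hormone-sensing luminal cells summed to 350988 and 317459 in KO diestrus and 375563 to 380111 in KO estrus, mostly Krt8 and Krt18. Endothelial (at most 84), macrophage (at most 378), lymphocyte (at most 8) and adipocyte markers (at most 2) were low throughout. The part of these marker differences in the results was not tested. Shorter transcripts were relatively higher in KO estrus (slopes of -0.116 to -0.0316 log2 per doubling of length, against 0.0558 and 0.0577 in KO diestrus). With each library's trend on length and GC content removed, the stage difference in KO was log2 -1.80 for Trib3, and those of Phgdh and Shmt2 became -0.10 and -0.06.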

How the data were processed

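Per the labels' protocols, RNA of sorted cells was isolated with an RNeasy kit, and a TruSeq kit served for library preparation. Per the submitters' processing notes, STAR, HTSeq, DESeq2 and mm10 were used, with versions, settings and annotation not given in the sources used here. Each deposited value is treated as a score, since the authors' table holds DESeq2-type normalized counts after rounding, without division by length. Because the values are normalized, a test on the log scale was used in place of one on read counts. Symbols, positions and exon lengths came from GENCODE M21 (GRCm38), which named 26249 of 26312 genes, and promoter sequences from RefSeq (GRCm38.p6). Exons of Psph and Shmt2 overlap those of Cct6a and Ndufa4l2, and Phgdh has a named pseudogene, so their counts are less certain.

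Values were used as log2(value + 1). In 15180 genes with a mean of at least 10, limma 3.58.1 (R 4.3.3) fitted 4 group means to the 10 libraries together, letting the spread follow the level. Two-sided p-values were adjusted by the Benjamini-Hochberg method across the tested genes, with a threshold of 0.05. The 10 genes and all lists were chosen with earlier results of these data known, and 1 gene of the folate list is not reported here. Named genes were the 10, up to 6 called genes per list and contrast with the largest difference (in a list without a call, the 2 most abundant), and the 5 genes most correlated with the mean of the 10. Alternatives were a pseudocount of 5, no filter, equal totals, quantile normalization, removal of the length and GC trend (15146 genes), no trend in the spread, the compared groups alone, replicate numbers as a block, and each library left out. Figures used Python 3.11.15 and matplotlib 3.10.9.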

Additional observations from a re-analysis of the deposited data

How the results depend on the processing

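With 1 library left out, the median log2 difference of the 10 genes ran from -0.51 to -0.12 for KO against WT at estrus, 0.16 to 0.61 at diestrus, -0.47 to -0.03 between stages in WT, -1.06 to -0.83 between stages in KO and -0.98 to -0.51 for the interaction, so only that between stages in KO stayed within 1.5 times its value. In KO between stages, 4 to 6 of the 10 genes were called under the other settings, beside 1492 to 2608 of all genes. Leaving out a KO diestrus library lowered both counts. Among the 10 genes and the called wider genes named by the rule, no direction of a called gene turned. Directions were not followed for the other genes. Of the wider genes, 0 to 17 were called in KO between stages with 1 library left out and 0 to 3 in KO against WT at estrus. That last count, 2 with all libraries, was 1 with no filter, 0 with the length and GC trend removed, with no trend in the spread and with the compared groups alone. Counts over all genes for KO against WT at estrus were 637, and 89 with no filter, 206 with the length and GC trend removed, 44 with no trend in the spread, 23 with the estrus libraries alone, and 67 to 909 with 1 library left out. Of the 637, 191 were higher and 446 lower, against 271 and 303 with equal totals and 397 and 423 with quantile normalization. At diestrus the count of 6 became 0 with no filter (limma), 2 with no trend in the spread, 98 with the compared groups alone and 0 to 28 with 1 library left out. Between stages in KO the count of 2524 was 1626 with no filter, 1492 with the trend removed and 39 to 2894 with 1 library left out. In WT it was 0 to 6 with 1 library left out, and the interaction had 0 to 3, and 3 with quantile normalization.

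The labels do not say whether libraries with the same replicate number share anything. Deviations from the group means had correlations of -0.132 to 0.187 between same-numbered libraries and -0.147 to 0.132 between others. In a group of 2 libraries the deviations mirror each other, so these values cannot decide the question. With the replicate numbers as a block, 996 genes were called for KO against WT at estrus, 5 of them in the wider lists, and 1 between stages in WT. Depth per gene before normalization is not known, and Mthfd1l and Vldlr rest on few counts.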
